A study of Mus musculus with 12 samples.

Results

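The transcripts described here are 10 genes that mark the crypt base or respond to Wnt signaling in the intestine: *Lgr5*, *Ascl2*, *Smoc2*, *Olfm4*, *Axin2*, *Rnf43*, *Sox9*, *Myc*, *Ephb2* and *Cd44*. They were chosen by name, and each matched exactly 1 row of a deposited table of 54532 genes. mRNA was sequenced in 12 libraries of mouse colonic epithelial organoids (colonoids), with 3 libraries in each of 4 groups. Control colonoids came from Hmox1 fl/fl mice and the others from Hmox1 fl/fl mice that also carried Vil1 Cre, in which the villin promoter drives Cre in villus and crypt epithelium to delete *Hmox1*, the gene of the heme-degrading enzyme HO-1. Mice were of C57BL/6 background and 8 to 12 weeks old, and colonoids of each genotype were exposed to vehicle or to 200 µM hemin for 24 h. Colonoids of every group had been grown in medium conditioned by L-WRN cells, a fibroblast line that secretes Wnt3a, R-spondin 3 and Noggin, so exogenous Wnt ligand and R-spondin were part of the culture in all 4 groups. The labels name no mouse, litter or culture for the replicates, so the errors and p-values measure the spread between libraries only.

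In the colon, cells at the crypt bottom receive Wnt ligands and R-spondins. Wnt binding to Frizzled and LRP receptors stops the destruction of β-catenin, which enters the nucleus and activates genes together with TCF/LEF factors. Some of these genes maintain stem cells (*Ascl2*), some drive growth (*Myc*), and some turn the signal down again (*Axin2*, *Rnf43*). Cells that leave the crypt bottom lose this signal and become absorptive colonocytes or goblet cells.

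Promoter sequence is shown for 4 of the 10 genes to set beside their responses: *Axin2* and *Rnf43* are both feedback inhibitors but moved in opposite directions with hemin in one genotype on the FPKM scale, *Ascl2* differed most between the genotypes in vehicle, and *Cd44* fell with hemin. RefSeq windows of 300 bases, from 250 before to 50 after the start site, were matched for 6 of the 10 genes on GRCm38.p6. The core letters of the TCF/LEF motif, CTTTG, were searched on both strands in every window. Capitals mark the only match among the 6 genes, in *Cd44*, where CTTTG lies on the opposite strand and is therefore written CAAAG. Each sequence runs 5′ to 3′ along the strand of its gene.
Axin2, chr11:108920099-108920398, plus strand: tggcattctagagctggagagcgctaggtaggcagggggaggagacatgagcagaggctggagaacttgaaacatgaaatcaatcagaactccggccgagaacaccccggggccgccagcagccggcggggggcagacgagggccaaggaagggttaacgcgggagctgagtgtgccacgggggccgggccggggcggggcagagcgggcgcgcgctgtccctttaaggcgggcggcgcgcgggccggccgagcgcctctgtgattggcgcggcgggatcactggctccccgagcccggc
Rnf43, chr11:87662837-87663136, plus strand: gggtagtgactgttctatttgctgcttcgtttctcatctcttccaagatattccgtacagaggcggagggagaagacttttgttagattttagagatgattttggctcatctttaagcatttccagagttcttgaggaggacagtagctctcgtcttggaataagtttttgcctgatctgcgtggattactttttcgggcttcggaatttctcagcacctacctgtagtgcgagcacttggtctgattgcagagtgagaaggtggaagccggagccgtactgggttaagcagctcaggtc
Ascl2, chr7:142969215-142969514, minus strand: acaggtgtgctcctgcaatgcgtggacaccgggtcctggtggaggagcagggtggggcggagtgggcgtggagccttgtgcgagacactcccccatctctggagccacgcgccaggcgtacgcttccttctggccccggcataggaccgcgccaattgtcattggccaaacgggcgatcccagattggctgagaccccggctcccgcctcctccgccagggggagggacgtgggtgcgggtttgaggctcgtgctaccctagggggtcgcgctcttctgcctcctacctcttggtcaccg
Cd44, chr2:102901616-102901915, minus strand: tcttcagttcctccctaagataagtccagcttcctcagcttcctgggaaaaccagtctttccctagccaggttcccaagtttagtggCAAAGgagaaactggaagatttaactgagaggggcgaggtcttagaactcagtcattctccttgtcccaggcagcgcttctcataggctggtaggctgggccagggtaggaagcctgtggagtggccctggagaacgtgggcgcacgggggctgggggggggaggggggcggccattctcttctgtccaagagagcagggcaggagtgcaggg
The match in *Cd44* starts 163 bases before the start site. CTTTG occurred in 53.9% of 32851 RefSeq promoter windows of the same length, the longer CTTTGAT in 3.73% and CTTTGTT in 5.85%, and the longer forms contain the shorter. The letters are thus common, and their absence from the other 5 genes says only that they are not in these windows. The *Rnf43* window shown begins downstream of the gene start in the deposited table, which is at 87662722. *Rnf43* had a further window at chr11:87699647-87699946, which also held no match and is not shown.

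Depth ranged from 11648801 to 25101868 fragments assigned to genes per library. The deposited values are fragments per kilobase of gene length, scaled to library size (FPKM), which can be compared between genes because they are scaled by gene length. Tests used limma on log2(FPKM + 1) with Benjamini-Hochberg adjustment over the 12740 genes that reached 1 FPKM in at least 3 libraries. A difference on this scale understates the change of a gene at low FPKM, so the ratio of mean FPKM is given as well for the differences of the low genes. Log2 differences are given ± SE and levels ± SD. A gene is said to have risen, fallen or differed where its adjusted p was under 0.05. The colonoids were epithelial by their markers: *Epcam* ranged from 758 to 1595 FPKM, while none of 14 stromal, endothelial and immune markers was high enough to be tested and their summed level was 0.0507 to 1.07 FPKM per library. The collagen gene *Col1a2* and the fibroblast gene *Dcn* were at 0 in all libraries.

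*Hmox1* itself did not follow the genotype label under hemin. In vehicle it was 7.62, 6.85 and 7.90 FPKM in control and 3.14, 2.11 and 2.31 FPKM in the KO libraries. With hemin it reached 503, 483 and 382 FPKM in control and 1279, 1393 and 1271 FPKM in KO. It was thus 2.96-fold lower in KO under vehicle (log2 difference −1.27 ± 0.12 SE, adjusted p = 1.2e-05 by limma with Benjamini-Hochberg adjustment) and 2.88-fold higher in KO under hemin (1.53 ± 0.12, adjusted p = 3.3e-06 by the same test). A value per gene does not separate fragments from deleted and remaining exons. The KO libraries are therefore called labelled KO from here on, and every direction between genotypes rests on these labels. The genotype label of labelled KO hemin replicate 3 is also written differently from those of its fellow replicates, as fl/fl with Vil1 Cre. Transcription factors that mark position along the gut differed between the genotypes as well: *Hoxb13* was 0 FPKM in all control libraries and averaged 110 FPKM in labelled KO vehicle and 132 FPKM in labelled KO hemin, *Hoxd13* was 0 FPKM in control and averaged 59.1 and 32.1 FPKM in the same labelled KO groups, and *Hoxb7* averaged 21.8 and 25.9 FPKM in control but 0.373 and 0.0334 FPKM in labelled KO. In vehicle 4 of 13 tested regional factors were higher and 6 lower in labelled KO, where 17.4% of all tested genes were higher and 16.8% lower, and the genotype and the regional identity of the cultures cannot be told apart in the differences below.

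Levels of the 10 genes spanned from no signal to over 80 FPKM. In control vehicle *Myc* was highest at 79.4 ± 4.36 FPKM (mean ± SD, n = 3), followed by *Sox9* at 29.8 ± 1.37, *Ephb2* at 18.9 ± 0.846, *Rnf43* at 14.95 ± 0.603 and *Cd44* at 11.3 ± 0.474 FPKM. The feedback gene *Axin2* averaged 5.98 ± 0.591 FPKM. Stem cell markers were low: *Smoc2* averaged 3.18 ± 0.399, *Lgr5* 2.45 ± 0.466 and *Ascl2* 0.894 ± 0.523 FPKM. *Olfm4*, a secreted glycoprotein known as a stem cell marker of the small intestine, had 0 or 1 fragment in every library, below the floor of 3 fragments used here, so no level or fold is given. It was the only member that was not tested. *Lgr5*, *Ascl2* and *Smoc2* passed the filter only through the groups in which they were high, so counts over the 9 tested members are a description and support no statement about the members as a group.

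**Figure D1:**
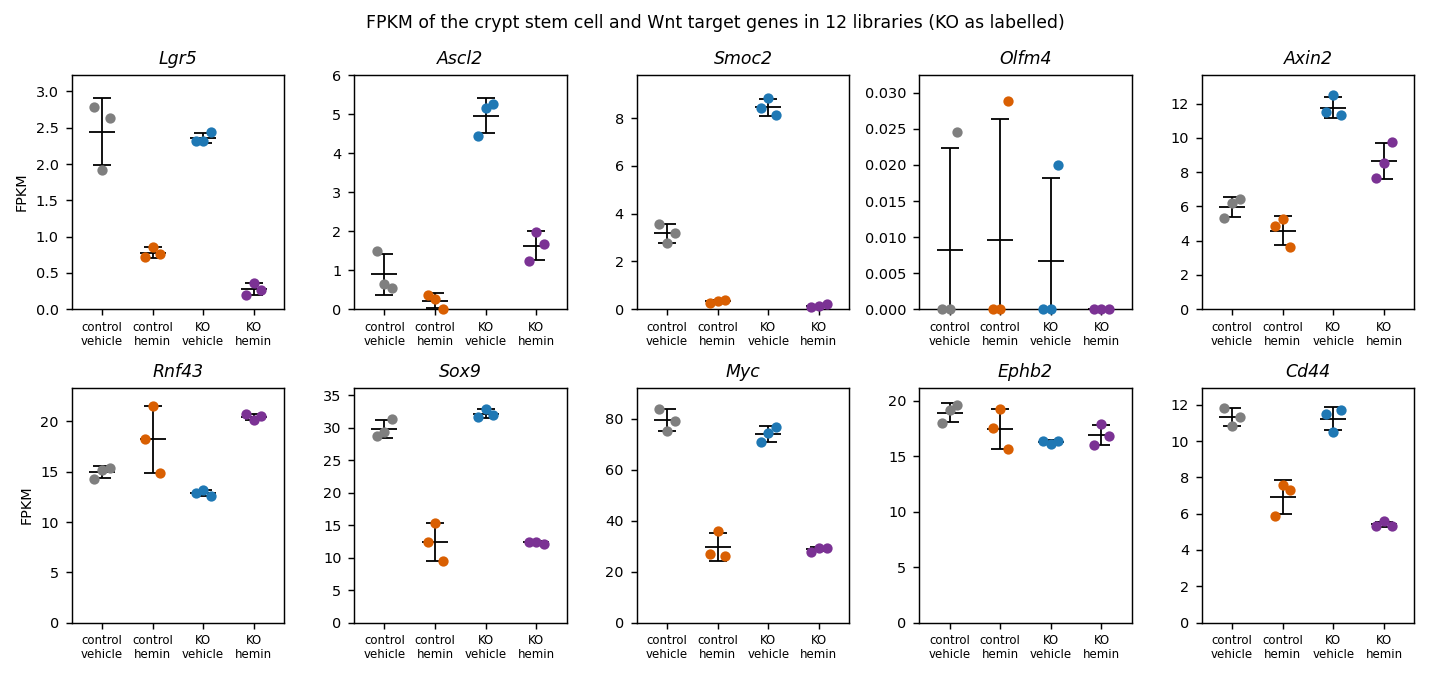
FPKM of the 10 genes (y axis, linear, separate scale for each gene) in the 4 groups (x axis, KO as labelled). Each point is 1 library, the long bar is the group mean and the error bar the SD (n = 3). *Smoc2*, *Sox9*, *Myc* and *Cd44* are lower in the hemin groups of both genotypes, *Axin2* is higher in both labelled KO groups, and *Olfm4* stays under 0.03 FPKM.

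The first comparison asked what hemin did to these genes in control colonoids. Hemin was followed by lower *Lgr5*, *Ascl2*, *Smoc2*, *Axin2*, *Sox9*, *Myc* and *Cd44*, which makes 7 of the 9 tested members, and by no called rise. Over all tested genes 26.7% fell and 23.2% rose, and the vehicle and hemin libraries did not overlap for 52.4%. The median log2 difference over all tested genes was −0.01. In bulk libraries, fewer cells of a type and less RNA per cell cannot be told apart.

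Among the stem cell markers, *Smoc2*, a secreted matrix-associated protein of stem cells, moved furthest. It measured 3.57, 2.77 and 3.20 FPKM in control vehicle and 0.265, 0.341 and 0.394 FPKM in control hemin. The groups did not overlap, and the mean was 9.54-fold lower with hemin (log2 difference −1.65 ± 0.08, adjusted p = 1.2e-07, limma). *Lgr5*, the R-spondin receptor that defines the cycling stem cell, measured 2.79, 1.92 and 2.64 FPKM in vehicle and 0.717, 0.857 and 0.767 FPKM with hemin. All hemin libraries were below all vehicle libraries, a 3.14-fold lower mean (−0.94 ± 0.10, adjusted p = 2.7e-05, limma). *Ascl2*, the transcription factor that specifies stem cells, measured 1.49, 0.649 and 0.538 FPKM in vehicle and 0.378, 0.261 and 0 FPKM with hemin. The hemin values rest on 7, 5 and 0 fragments. Its fall, a 4.199-fold lower mean (−0.62 ± 0.19, adjusted p = 0.018, limma), did not pass without control vehicle replicate 1, at −0.41 with adjusted p = 0.062, without control hemin replicate 3, at −0.49 with adjusted p = 0.056, or with no filter on low genes, at adjusted p = 0.051.

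The 2 transcription factors of the crypt fell without overlap. *Myc*, which drives growth and division, measured 83.9, 75.2 and 79.1 FPKM in vehicle and 26.9, 35.9 and 26.2 FPKM with hemin. That was a 2.68-fold lower mean (−1.40 ± 0.10, adjusted p = 1.4e-06, limma). *Sox9*, a factor of stem and progenitor cells, measured 28.7, 29.4 and 31.4 FPKM in vehicle and 12.3, 15.3 and 9.46 FPKM with hemin, a 2.41-fold lower mean (−1.23 ± 0.12, adjusted p = 1.4e-05, limma). The highest hemin library was below the lowest vehicle library for both genes.

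The surface receptors differed from each other. *Cd44*, the hyaluronan receptor of crypt cells, went from 11.8, 10.9 and 11.4 FPKM in vehicle to 5.85, 7.60 and 7.31 FPKM with hemin (−0.65 ± 0.08, adjusted p = 9.4e-05, limma). *Ephb2*, a receptor that positions cells along the crypt axis, measured 18.0, 19.2 and 19.6 FPKM in vehicle and 17.5, 19.3 and 15.7 FPKM with hemin. These groups overlapped and the difference was −0.11, with a 95% interval from −0.27 to 0.05 (adjusted p = 0.23, limma). Under TPM computed without *Gm23935*, a non-coding gene described with the scaling, the *Ephb2* difference was −0.22 and passed (adjusted p = 0.04).

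The feedback inhibitors responded weakly in control. *Axin2*, a scaffold of the β-catenin destruction complex and a direct Wnt target, measured 5.31, 6.21 and 6.42 FPKM in vehicle and 4.84, 5.28 and 3.62 FPKM with hemin. The groups were separated only by the gap from 5.28 to 5.31 FPKM, and the difference of −0.33 ± 0.12 (adjusted p = 0.04, limma) was close to the threshold. It missed the threshold in 8 of 12 fits with 1 library left out (adjusted p up to 0.12), all but those without control vehicle replicate 1, control hemin replicate 2 or labelled KO hemin replicate 1 or 3. Without control hemin replicate 3 the difference was −0.20. Where a labelled KO library was left out it stayed at −0.33, and only the estimate of spread shared by all groups changed. It also missed the threshold with the replicate number as a block (adjusted p = 0.053) and with no filter (adjusted p = 0.085). *Rnf43*, the ubiquitin ligase that removes Frizzled from the membrane, measured 14.3, 15.2 and 15.4 FPKM in vehicle and 18.3, 21.6 and 14.9 FPKM with hemin. The groups overlapped and the difference was 0.26, with an interval from 0.03 to 0.48 (adjusted p = 0.057, limma). It passed without control hemin replicate 3, at 0.39 with adjusted p = 0.00062, was 0.13 with adjusted p = 0.18 without control hemin replicate 2, and was 0.078 with adjusted p = 0.8 under TPM.

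In the labelled KO colonoids *Lgr5*, *Ascl2*, *Smoc2*, *Axin2*, *Sox9*, *Myc* and *Cd44*, 7 of the 9 tested members, fell with hemin, and *Rnf43* rose. Over all tested genes 30.4% fell, 29.9% rose and 74.4% had no overlap between the groups. The median log2 difference over all tested genes was 0.00. The control and labelled KO comparisons used different libraries throughout. *Smoc2* went from 8.43, 8.83 and 8.12 FPKM in vehicle to 0.110, 0.141 and 0.201 FPKM, a 56.3-fold lower mean (−3.04 ± 0.08, adjusted p = 5.7e-10, limma). *Lgr5* went from 2.32, 2.32 and 2.44 FPKM to 0.196, 0.364 and 0.272 FPKM, an 8.5-fold lower mean (−1.40 ± 0.10, adjusted p = 8e-07, limma). *Ascl2* went from 4.45, 5.17 and 5.27 FPKM to 1.24, 1.99 and 1.67 FPKM, a 3.03-fold lower mean (−1.19 ± 0.19, adjusted p = 0.00027, limma). None of these 3 stem cell markers overlapped between hemin and vehicle.

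*Myc* went from 70.7, 74.5 and 76.8 FPKM to 27.9, 29.1 and 29.3 FPKM in the labelled KO (−1.33 ± 0.10, adjusted p = 1.1e-06, limma). *Sox9* went from 31.7, 32.9 and 31.9 FPKM to 12.3, 12.5 and 12.2 FPKM (−1.32 ± 0.12, adjusted p = 4.8e-06, limma), and *Cd44* from 11.5, 10.5 and 11.7 FPKM to 5.32, 5.59 and 5.31 FPKM (−0.93 ± 0.08, adjusted p = 3.6e-06, limma). The hemin libraries of the labelled KO lay close together for all 3 genes. *Axin2* went from 11.5, 12.5 and 11.3 FPKM to 7.64, 8.55 and 9.73 FPKM (−0.41 ± 0.12, adjusted p = 0.012, limma), which missed the threshold without labelled KO hemin replicate 1 (−0.33, adjusted p = 0.053). *Rnf43* rose from 12.9, 13.2 and 12.6 FPKM to 20.7, 20.1 and 20.6 FPKM (0.63 ± 0.10, adjusted p = 0.00029, limma). *Ephb2* overlapped again, at 16.4, 16.1 and 16.4 FPKM in vehicle and 16.1, 17.9 and 16.9 FPKM with hemin, with a difference of 0.05 and an interval from −0.11 to 0.22.

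The scale of the values matters for the small differences. The FPKM of a library do not sum to a fixed total, and 1 non-coding gene, *Gm23935*, took between 1.18% and 29% of that sum. Rescaling each library to a fixed total (TPM) moved the median of all tested genes by −0.18 for hemin in control and by −0.31 for hemin in labelled KO. Under TPM 854 genes rose and 3146 fell with hemin in control, against 2953 and 3406 on FPKM, and 1191 rose and 4708 fell in labelled KO, against 3815 and 3879. The 7 falls in each genotype passed under TPM as well. The rise of *Rnf43* in labelled KO was 0.32 under TPM and did not pass (adjusted p = 0.19), and the *Ephb2* difference there was −0.28 in place of 0.05. Under TPM computed without *Gm23935* the rise of *Rnf43* passed.

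**Figure D2:**
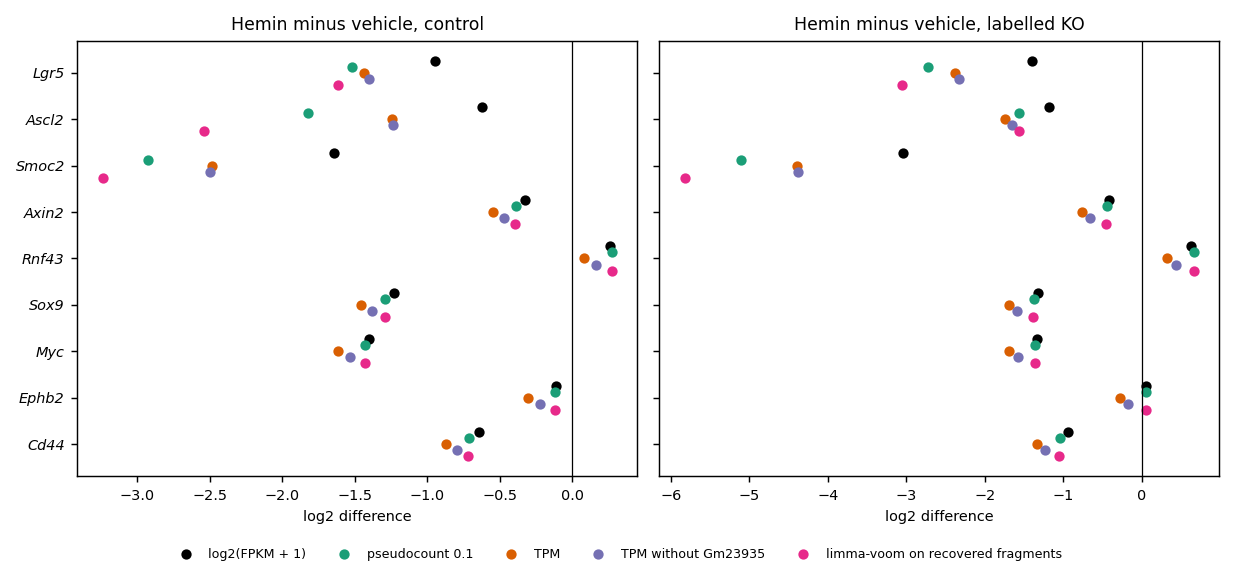
Log2 difference of hemin minus vehicle (x axis) for the 9 tested members (y axis) in control (left) and labelled KO (right) colonoids, under 5 ways of scaling the same libraries. Points of *Lgr5*, *Ascl2*, *Smoc2*, *Axin2*, *Sox9*, *Myc* and *Cd44* lie below 0 under each, *Rnf43* lies above 0, and *Ephb2* in the labelled KO crosses 0. The low genes *Lgr5* and *Smoc2* move further with a smaller pseudocount or on fragment counts.

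The second question was whether the genotypes differed without hemin. In vehicle, *Ascl2*, *Smoc2* and *Axin2* were higher in labelled KO than in control, 3 of the 9 tested members, and no member was lower. Over all tested genes 17.4% were higher, 16.8% lower and 57.5% did not overlap. *Ascl2* was 5.55-fold higher (log2 difference 1.69 ± 0.19, adjusted p = 4.1e-05, limma), *Smoc2* 2.66-fold higher (1.18 ± 0.08, adjusted p = 1.1e-06, limma) and *Axin2* 1.97-fold higher (0.87 ± 0.12, adjusted p = 0.00018, limma). For these 3 genes every labelled KO vehicle library was above every control vehicle library, and all 3 passed under TPM. TPM moved the median of all tested genes by 0.14 in this comparison, where it gave 1472 genes higher and 797 lower, against 2220 and 2142 on FPKM.

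*Lgr5* did not follow *Ascl2* and *Smoc2*. Its means were 2.36 ± 0.0686 FPKM in labelled KO vehicle and 2.45 ± 0.466 FPKM in control vehicle, the libraries overlapped, and the difference was −0.03 with an interval from −0.26 to 0.20 (adjusted p = 0.87, limma). *Myc*, *Sox9* and *Cd44* differed by −0.10 (interval −0.33 to 0.13), 0.11 (−0.17 to 0.38) and −0.01 (−0.20 to 0.18). For *Sox9* the labelled KO libraries, at 31.7 to 32.9 FPKM, were all above the control libraries, at 28.7 to 31.4 FPKM, but the difference missed the threshold (adjusted p = 0.56, limma). *Rnf43* and *Ephb2* were slightly lower in every labelled KO vehicle library than in any control vehicle library, but their differences of −0.20 (adjusted p = 0.16, limma) and −0.21 (adjusted p = 0.053, limma) missed the threshold. Since all groups share the estimate of spread, *Ephb2* passed without control hemin replicate 2 or 3 (adjusted p = 0.025 and 0.011) and *Rnf43* without control hemin replicate 3 (adjusted p = 0.018).

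Under hemin, *Ascl2* and *Axin2* were again higher in labelled KO, and *Lgr5* and *Cd44* were lower. Over all tested genes 19.7% were higher, 14.7% lower and 40.9% did not overlap. *Ascl2* averaged 1.64 ± 0.376 FPKM in labelled KO hemin and 0.213 ± 0.193 FPKM in control hemin, 7.68-fold higher (1.12 ± 0.19 on the log2 scale, adjusted p = 0.00086, limma). The control hemin mean rests on 7, 5 and 0 fragments, so the size of this fold is uncertain. Over the alternatives that tested *Ascl2*, the log2 difference ran from 0.99 to 3.54. *Axin2* averaged 8.64 ± 1.05 against 4.58 ± 0.860 FPKM, 1.89-fold higher (0.80 ± 0.12, adjusted p = 0.00039, limma). After hemin *Axin2* in labelled KO thus still exceeded its level in every control vehicle library. *Lgr5* averaged 0.277 ± 0.0842 against 0.781 ± 0.0707 FPKM, 2.81-fold lower (−0.48 ± 0.10, adjusted p = 0.0043, limma). *Cd44* averaged 5.41 ± 0.163 against 6.92 ± 0.940 FPKM (−0.30 ± 0.08, adjusted p = 0.018, limma), which missed the threshold under TPM (adjusted p = 0.32) and without control hemin replicate 2 or labelled KO hemin replicate 1 or 3 (adjusted p = 0.057, 0.056 and 0.06).

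*Smoc2*, higher in labelled KO in vehicle, was at 0.110 to 0.201 FPKM in labelled KO hemin and 0.265 to 0.394 FPKM in control hemin, on 11 to 23 and 21 to 32 fragments. The mean was 2.22-fold lower in labelled KO. That difference missed the threshold on the main scale at −0.21 ± 0.08 (adjusted p = 0.077, limma) but passed with a pseudocount of 0.1 (−0.80, adjusted p = 0.0048), in limma-voom on fragment counts (−1.17, adjusted p = 0.017) and under TPM without *Gm23935* (−0.48, adjusted p = 0.012). *Myc*, *Sox9*, *Ephb2* and *Rnf43* overlapped between the genotypes under hemin, with differences of −0.03 (interval −0.26 to 0.20), 0.02 (−0.25 to 0.29), −0.04 (−0.20 to 0.12) and 0.17 (−0.05 to 0.40). The *Rnf43* difference was 0.30 with adjusted p = 0.016 without control hemin replicate 2 and 0.043 with adjusted p = 0.64 without control hemin replicate 3.

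**Figure D3:**
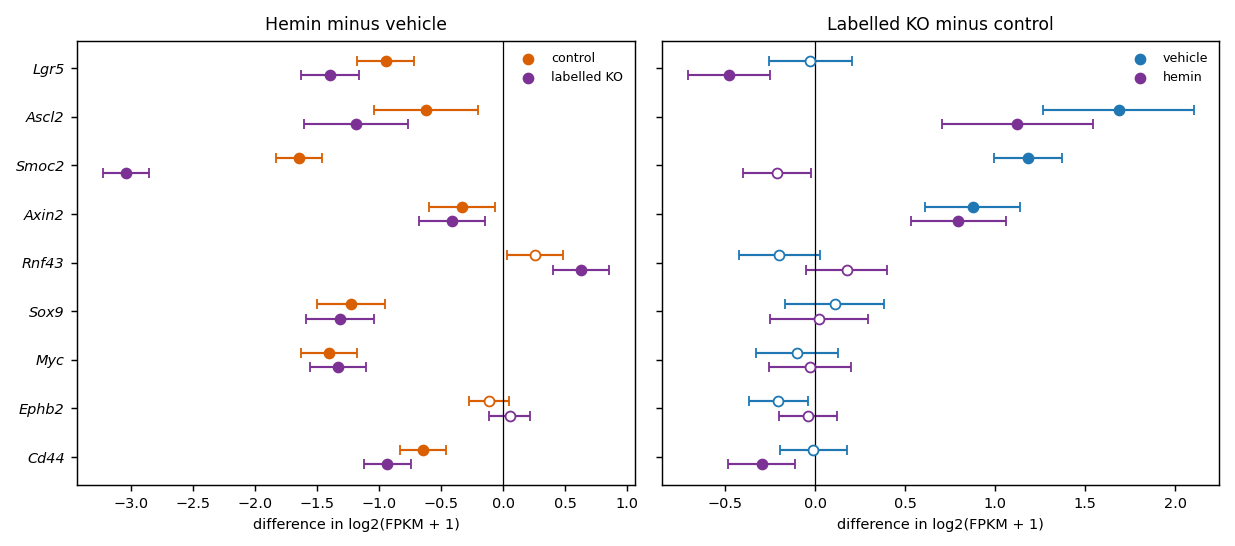
Difference in log2(FPKM + 1) with its 95% interval (x axis) for the 9 tested members (y axis). The left panel gives hemin minus vehicle in control and labelled KO, the right panel labelled KO minus control in vehicle and hemin. Filled points passed adjusted p under 0.05 and open points did not. *Smoc2* in labelled KO has the furthest fall at −3.04, and *Ascl2* in vehicle the furthest genotype difference at 1.69.

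Whether the hemin response itself differed between the genotypes was tested as an interaction. Over all tested genes 10.5% had a lower and 13.3% a higher response in labelled KO. Under TPM 597 genes had a lower and 312 a higher response, against 1336 and 1695 on FPKM, with the median moved by −0.13. Of the members, *Smoc2* (−1.39 ± 0.12, adjusted p = 1.9e-05, limma) and *Lgr5* (−0.45 ± 0.15, adjusted p = 0.047, limma) had a lower response in labelled KO. The *Smoc2* value passed under every alternative that tested it. Both genes passed the filter on low values only through their vehicle groups, and a mean of at least 5 FPKM drops both. Under hemin *Smoc2* rests on 21 to 32 fragments in control and 11 to 23 in labelled KO. Both values are given as a description. The *Lgr5* value missed the threshold under TPM (−0.94, adjusted p = 0.059), with the replicate number as a block (adjusted p = 0.086), with no filter (adjusted p = 0.11) and in 9 of 12 fits with 1 library left out, all but those without control vehicle replicate 1, control hemin replicate 3 or labelled KO hemin replicate 2. It was larger and passed with a pseudocount of 0.1 (−1.21, adjusted p = 0.01), in limma-voom (−1.43, adjusted p = 0.0045) and under TPM without *Gm23935* (−0.92, adjusted p = 0.01). *Ascl2* gave −0.56 (interval −1.16 to 0.03, adjusted p = 0.16, limma), but passed without control vehicle replicate 1 (−0.78, adjusted p = 0.028) and turned sign with a pseudocount of 0.1, to 0.26. *Rnf43* gave 0.37 (adjusted p = 0.087, limma) and passed without control hemin replicate 2 (0.50, adjusted p = 0.0078). *Cd44* gave −0.29 (adjusted p = 0.11, limma) and passed without control hemin replicate 1 (−0.39, adjusted p = 0.012) and under TPM without *Gm23935* (−0.43, adjusted p = 0.042). The differences of *Myc*, *Sox9* and *Axin2* were 0.07 (interval −0.25 to 0.39), −0.09 (−0.47 to 0.30) and −0.08 (−0.45 to 0.30).

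The order of the group means differed between the members. *Sox9*, *Myc* and *Cd44* had both vehicle groups above both hemin groups in every library, as did *Lgr5* and *Smoc2*. How many of all tested genes share this order was not counted. Hemin and vehicle did not overlap for 52.4% of them in control and 74.4% in labelled KO. *Rnf43* ran the other way, at 20.5 FPKM in labelled KO hemin, 18.2 in control hemin, 14.95 in control vehicle and 12.9 in labelled KO vehicle. Of its neighbours in that order, only the vehicle groups were apart. *Axin2* was ordered by genotype, with labelled KO vehicle above labelled KO hemin, control vehicle and control hemin, and no library of any group overlapped its neighbour in that order. *Ascl2* was highest in labelled KO vehicle and lowest in control hemin, and the groups between, labelled KO hemin and control vehicle, overlapped. *Ephb2* overlapped between every pair of neighbours in its order. Spread between libraries was widest in control hemin, where the median coefficient of variation of tested genes was 15.6%, against 7.64%, 4.77% and 7.27% in control vehicle, labelled KO vehicle and labelled KO hemin. Control hemin replicate 2 was highest for 7 of the 9 tested members and replicate 3 lowest for 6.

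Genes whose pattern over the 12 libraries was closest to that of *Lgr5*, by the root mean square difference of centered log2(FPKM + 1), were *Rpl3* (0.142), *Hnrnpa1* (0.145) and *Anp32e* (0.152), where *Lgr5* itself spread by 0.617. Closest to *Axin2*, with a spread of 0.475, were *Arhgap31* (0.117), *Sh3rf1* (0.132) and *Ptprn2* (0.147). This measure includes the pseudocount, which shrinks differences at low levels, so close neighbors can differ in their ratios of FPKM. In labelled KO *Rpl3* went from 383 to 116 FPKM with hemin, a smaller ratio than the 8.5-fold of *Lgr5*. *Arhgap31* averaged 0.261, 0.116, 1.46 and 0.809 FPKM and *Sh3rf1* averaged 5.42, 3.98, 9.89 and 7.23 FPKM in control vehicle, control hemin, labelled KO vehicle and labelled KO hemin.

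The rest of the pathway was read from lists of named genes, upstream to downstream. The lists share some genes, so their counts are not independent. *Atoh1* is among both the other crypt stem cell genes and the goblet cell markers. *Tcf7* is among both the TCF/LEF factors and the other Wnt target genes. Of 25 Wnt ligands, R-spondins and secretion factors, only the secretion factors *Wls* and *Porcn* were high enough to be tested, and *Rspo3* was at 0 in all libraries. *Wls*, which carries Wnt proteins to the cell surface, rose with hemin in control (0.40 ± 0.11, adjusted p = 0.011, limma) and labelled KO (0.64 ± 0.11, adjusted p = 0.00049, limma), and *Porcn*, which lipidates them, fell in both. Neither rise of *Wls* passed under TPM, but both passed under TPM without *Gm23935*. Of 16 Wnt inhibitors only the Dickkopf receptors *Kremen1* and *Kremen2* were tested, and *Kremen2* fell with hemin in both genotypes, from 3.29 to 1.26 FPKM in control. *Kremen1* rose in labelled KO, from 4.62 to 6.09 FPKM (0.34 ± 0.13, adjusted p = 0.042, limma), which did not pass under TPM with or without *Gm23935*.

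Of 18 receptor genes 11 were tested. With hemin, 2 rose and 5 fell in control, where 23.2% of all tested genes rose and 26.7% fell, and 3 rose and 5 fell in labelled KO, where 29.9% rose and 30.4% fell. The hemin counts of the lists that follow are to be read against the same shares. The co-receptor *Lrp5* fell from 17.2 to 9.07 FPKM in control (−0.86 ± 0.13, adjusted p = 0.00021, limma) and the Frizzled *Fzd1* from 13.1 to 8.14 FPKM (−0.63 ± 0.09, adjusted p = 0.00017, limma). *Lgr4*, the widely expressed relative of *Lgr5*, rose from 32.7 to 52.0 FPKM in labelled KO (0.65 ± 0.07, adjusted p = 8.8e-06, limma). None of the 3 rises in labelled KO passed under TPM, and 2 of them, that of *Lgr4* included, passed under TPM without *Gm23935*. Between genotypes in vehicle, where 17.4% of all tested genes were higher and 16.8% lower in labelled KO, 3 receptors were higher and 3 lower (3 and 2 under TPM), among them *Fzd7* (8.55 against 1.11 FPKM; 2.18 ± 0.09) and *Fzd10* (0.159 against 3.33 FPKM; −1.90 ± 0.13).

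Of 14 tested genes of the destruction complex, 13 had no call with hemin in control, and 1, the ubiquitin ligase subunit *Btrc*, rose. In labelled KO 6 rose and 2 fell, beside 29.9% and 30.4% of all tested genes, and no rise passed under TPM with or without *Gm23935*. *Amer1*, a membrane-associated partner of APC, fell there from 2.51 to 0.996 FPKM (−0.81 ± 0.10, adjusted p = 5.5e-05, limma). β-catenin itself, *Ctnnb1*, was lower in labelled KO in vehicle (178 against 262 FPKM; −0.55 ± 0.05, adjusted p = 1.1e-05, limma) and under hemin (205 against 267 FPKM; −0.38 ± 0.05, adjusted p = 2e-04, limma), and neither passed under TPM. Both differences of *Ctnnb1* passed under TPM without *Gm23935*. Among 9 tested TCF/LEF factors and partners, 1 rose and 2 fell with hemin in control, and 2 rose and 5 fell in labelled KO. *Tcf7l1*, a repressive TCF, was 15.01 FPKM in labelled KO vehicle and 0.339 FPKM in control vehicle (3.58 ± 0.09, adjusted p = 3.6e-10, limma), and fell to 2.01 FPKM with hemin in labelled KO. The corepressor *Tle4* rose with hemin in both genotypes, from 11.3 to 35.6 FPKM in labelled KO (1.57 ± 0.08, adjusted p = 4.1e-08, limma). Its rise in control did not pass under TPM but passed under TPM without *Gm23935*.

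Among other Wnt target genes falls outnumbered rises with hemin. Of 15 tested of 22 listed, 0 rose and 9 fell with hemin in control, with a median of −0.36, and 2 rose and 10 fell in labelled KO, with a median of −0.45. Under TPM 0 rose in either, and 8 and 11 fell. The cell cycle gene *Ccnd1* fell from 82.0 to 11.6 FPKM in control (−2.72 ± 0.09, adjusted p = 5.6e-09, limma) and from 54.1 to 15.9 FPKM in labelled KO (−1.72 ± 0.09, adjusted p = 7.5e-08, limma). In vehicle 5 were higher and 5 lower in labelled KO (5 and 2 under TPM), beside 17.4% and 16.8% of all tested genes. *Ephb3*, the partner receptor of *Ephb2*, was 11.3 against 5.19 FPKM (1.00 ± 0.18, adjusted p = 0.0015, limma), and the Notch ligand *Jag1* was 3.57 against 11.6 FPKM (−1.46 ± 0.07, adjusted p = 4.1e-08, limma). The higher *Axin2* of labelled KO vehicle therefore came with other Wnt targets on both sides.

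Of other crypt stem cell genes, 21 of 26 listed were tested. With hemin 4 rose and 14 fell in control (median −0.53), and 5 rose and 15 fell in labelled KO (median −0.81). Under TPM 1 rose in each, and 12 and 15 fell. Under TPM without *Gm23935* 3 rose and 16 fell in control, and 2 rose and 16 fell in labelled KO. The water channel *Aqp4* fell from 10.5 to 0.597 FPKM in control (−2.85 ± 0.07, adjusted p = 8.3e-10, limma) and from 73.0 to 4.24 FPKM in labelled KO (−3.82 ± 0.07, adjusted p = 5.1e-11, limma). *Prom1*, a membrane glycoprotein, rose in both, from 133 to 202 FPKM in control and from 45.0 to 89.8 FPKM in labelled KO. The control rise did not pass under TPM but passed under TPM without *Gm23935*. In vehicle 10 were higher and 6 lower in labelled KO (8 and 3 under TPM), beside 17.4% and 16.8% of all tested genes. The surface protein *Cd24a* was 123 against 7.64 FPKM (3.84 ± 0.10, adjusted p = 2.4e-10, limma), whereas *Clu*, a gene of regenerating epithelium, was 30.8 against 89.3 FPKM (−1.50 ± 0.08, adjusted p = 7.7e-08, limma).

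Proliferation genes moved with the hemin groups. All 16 fell in control (median −1.49) and 15 of 16 fell in labelled KO (median −1.29), and 12 were higher in labelled KO in vehicle and 13 under hemin, with 0 lower in either. Of all tested genes 17.4% were higher and 16.8% lower in vehicle, and 19.7% and 14.7% under hemin. The replication helicase subunit *Mcm3* fell from 30.6 to 5.97 FPKM in control and from 47.5 to 12.2 FPKM in labelled KO. Under TPM 9 were higher in labelled KO in each condition, and 13 in each under TPM without *Gm23935*. The part of proliferation in the falls of the crypt genes was not tested.

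Markers of the differentiated cells were counted against the same shares of all tested genes, 23.2% risen and 26.7% fallen in control and 29.9% and 30.4% in labelled KO. Of 15 tested absorptive colonocyte markers, 6 rose and 7 fell with hemin in control and 6 rose and 6 fell in labelled KO, with *Krt20* up from 106 to 286 FPKM in labelled KO and *Guca2b* down from 48.9 to 15.8 FPKM in control. Under TPM 4 of them rose and 6 fell in control, and 4 rose and 7 fell in labelled KO. Their summed level was 5111 to 5491 FPKM in control vehicle and 8001 to 11397 in control hemin, and 4967 to 5116 in labelled KO vehicle and 8478 to 10078 in labelled KO hemin. The carbonic anhydrase *Car1* made up much of this sum, at means of 2129 and 4918 FPKM in control vehicle and hemin. Of 12 goblet cell markers, 3 rose and 7 fell in control and 1 rose and 10 fell in labelled KO, and their summed level was 1996 to 2233, 1444 to 1825, 2819 to 2939 and 1098 to 1218 FPKM in control vehicle, control hemin, labelled KO vehicle and labelled KO hemin. Under TPM no goblet cell marker rose in either genotype, and 7 and 10 fell. Under TPM without *Gm23935* 2 rose and 7 fell in control, and 1 rose and 10 fell in labelled KO. Enteroendocrine and tuft cell markers were higher in labelled KO vehicle for all 6 tested of 10 listed, beside 17.4% of all tested genes, with a summed level of 560 to 588 FPKM against 37.2 to 45.2 FPKM in control vehicle. The hormone gene *Pyy* alone averaged 403 against 7.17 FPKM in these groups. The part of these markers in the genotype differences of *Ascl2*, *Smoc2* and *Axin2* was not tested.

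**Figure D4:**
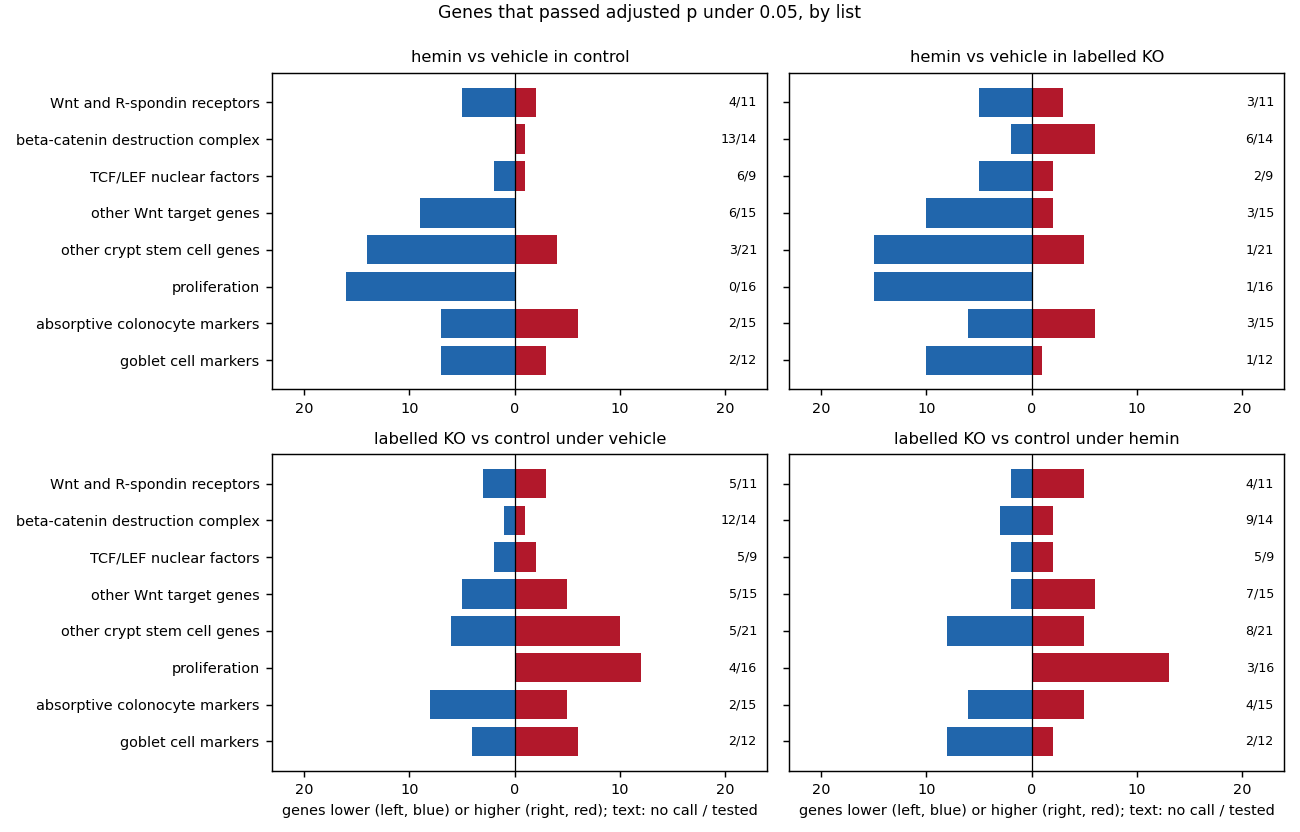
Number of genes per list (x axis) that were higher (red, right) or lower (blue, left) at adjusted p under 0.05 in each of 4 comparisons. The figures at the right of each row give the genes with no call and the genes tested. All 16 proliferation genes fall with hemin in control, and 13 of 14 destruction complex genes have no call there.

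Reads shared with neighbors were few. *Axin2* overlaps *Gm11670* on the opposite strand, which had at most 9 fragments in a library, and *Olfm4* overlaps *Gm6999*, which had 0. Whether counting used strand is not given in the sources used here. On GRCm38 the *Lgr5* gene (ENSMUSG00000020140) lies at chr10:115450311-115587780 on the minus strand, *Ascl2* (ENSMUSG00000009248) at chr7:142966829-142969264 on the minus strand, *Smoc2* (ENSMUSG00000023886) at chr17:14279506-14404790 on the plus strand and *Axin2* (ENSMUSG00000000142) at chr11:108920349-108950783 on the plus strand. The identifiers of the others are ENSMUSG00000022026 for *Olfm4*, ENSMUSG00000034177 for *Rnf43*, ENSMUSG00000000567 for *Sox9*, ENSMUSG00000022346 for *Myc*, ENSMUSG00000028664 for *Ephb2* and ENSMUSG00000005087 for *Cd44*. Values are over all annotated exons of a gene, untranslated regions included.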

How the data were processed

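mRNA of 12 mouse colonoid libraries was measured, and the authors deposited 1 table of FPKM per gene with gene lengths and positions. Per the labels and the submitters' processing notes, poly-A libraries were sequenced, reads were filtered with fastp, aligned to mm10 with HISAT2 2.0.5 and counted with featureCounts 1.5.0-p3. The deposited FPKM values multiplied by gene length were whole multiples of a step in 100% of values above 0 (tolerance 0.01 of a step), so fragments per gene were recovered. Of the deposited IDs, 54495 matched GENCODE M21, and 98.33% of those had the same start and end.

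From these values log2(FPKM + 1) was fitted with limma 3.58.1 in R 4.3.3 (4 group means, intensity trend, 8 residual degrees of freedom, 3 libraries per group), with Benjamini-Hochberg adjustment over the 12740 genes of at least 1 FPKM in at least 3 libraries. Alternatives were a pseudocount of 0.1, no filter, a mean of at least 5 FPKM, TPM, TPM without Gm23935, the replicate number as a block, no intensity trend, limma-voom on recovered fragments and leaving out each library. The self-tests used simulated data. Replicates of a group differed by more than sampling noise (chi-square per degree of freedom 1.98 to 47.9 over 12 pairs).

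The members and all gene lists were chosen with earlier results of these data known. In each list the genes named are at most 2 of those that rose and 2 that fell furthest, among genes past the threshold whose groups do not overlap, and up to 3 genes nearest to *Lgr5* and *Axin2*. *Rspo3*, *Col1a2*, *Dcn* and *Gm23935* fall outside this rule and were named after their values were seen. The motif letters were also chosen after the data were seen. Figures were drawn with matplotlib 3.10.9 in Python 3.11.15. Intervals are at 95%, and the floor of 3 fragments covers counting error only.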

Additional observations from a re-analysis of the deposited data

Results flagged for a closer look

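2 members had a hemin response that differed between the genotypes by the test of the difference itself. For *Lgr5* the response of the labelled KO libraries was lower than that of the controls by a log2 difference of −0.451, with means of 2.45 and 0.781 FPKM in control vehicle and hemin and 2.36 and 0.277 FPKM in labelled KO vehicle and hemin. For *Smoc2* it was lower by a log2 difference of −1.39, with means of 3.18 and 0.333 FPKM in control and 8.46 and 0.150 FPKM in labelled KO. *Smoc2* was higher in labelled KO vehicle than in control vehicle, whereas *Lgr5* overlapped between the vehicle groups. Both fell to under 1 FPKM in every hemin library, so both passed the filter on low values only through the vehicle groups, where they were high, and their values are given as a description. *Lgr5* lost its call under several alternatives.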

How the results depend on the processing

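Single-gene values of the 9 tested members kept direction and side of the threshold in 318 of 345 cases over the alternatives that kept all libraries, with 8 falling short, 7 newly passing and 12 turning sign, and in 499 of 540 cases with 1 library left out. In the order hemin in control, hemin in labelled KO, genotype in vehicle, genotype under hemin, interaction, a mean of at least 5 FPKM, which drops *Lgr5*, *Ascl2* and *Smoc2*, left 4 and 4 members lower with hemin (7 and 7), 1 higher in vehicle (3), 1 higher and 1 lower under hemin (2 and 2) and 0 in the interaction (2). Over all genes it gave 2113, 2190, 1026 and 644 lower with hemin in control, hemin in labelled KO, genotype under hemin and interaction (3406, 3879, 1874 and 1336), and 1219 higher for genotype in vehicle (2220). TPM gave 854 and 1191 genes higher with hemin (2953 and 3815), 0 members higher in labelled KO (1), 1472 higher and 797 lower by genotype in vehicle (2220 and 2142), 1151 and 958 under hemin (2509 and 1874), 312 and 597 in the interaction (1695 and 1336), and 1 member lower in each of genotype under hemin and interaction (2 each). TPM without *Gm23935* gave 2458 genes higher with hemin in labelled KO (3815). The interaction had 1 member lower, *Smoc2*, with no filter and with the replicate block (2). limma-voom called 1 more member higher with hemin in control, *Rnf43*, and 1 lower by genotype in vehicle, *Ephb2*. The cause of these changes, other than the dropped genes, was not tested.

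Signs turned in differences that passed in neither fit. The interaction of *Ascl2* was −0.56 and became 0.26 with a pseudocount of 0.1 and 0.97 in limma-voom. Under TPM and TPM without *Gm23935*, hemin in labelled KO gave −0.28 and −0.17 for *Ephb2* (0.05), genotype in vehicle gave 0.13 and 0.051 for *Cd44* (−0.01) and 0.10 and 0.024 for *Lgr5* (−0.03), and the interaction gave −0.076 and −0.046 for *Myc* (0.07). *Myc* by genotype in vehicle was 0.047 under TPM (−0.10), and *Sox9* under hemin −0.031 under TPM without *Gm23935* (0.02).

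With 1 library left out, members higher and lower ranged from 0 to 1 and 5 to 7 for hemin in control, 1 to 1 and 6 to 7 for hemin in labelled KO, 3 to 3 and 0 to 2 for genotype in vehicle, 2 to 3 and 1 to 2 for genotype under hemin, and 0 to 1 and 1 to 3 for the interaction. Signs turned with 1 library left out for *Cd44* (−0.040 to 0.031) and *Lgr5* (−0.15 to 0.044) by genotype in vehicle, for *Myc* (−0.11 to 0.11), *Sox9* (−0.15 to 0.17) and *Ephb2* (−0.11 to 0.028) by genotype under hemin, and for *Myc* (−0.0086 to 0.21), *Sox9* (−0.25 to 0.067) and *Axin2* (−0.21 to 0.013) in the interaction, none of which passed. All-gene calls of the interaction ranged from 1325 to 2656 higher and 1037 to 2070 lower, the highest without control hemin replicate 3.

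The labels do not say whether libraries of the same replicate number belong together. Deviations from the group mean correlated at −0.0425 on average (−0.327 to 0.179) for same-numbered libraries of different groups. For different numbers the average was 0.0232, a value tied to the first because deviations within a group sum to 0. Both averages mix genotypes and treatments, so they cannot decide whether libraries were paired. The main fit used no block. With the block, the fall of *Axin2* in control (adjusted p = 0.053, limma) and the interaction of *Lgr5* (adjusted p = 0.086, limma) missed the threshold. Low levels limit *Ascl2*, *Smoc2* and *Lgr5* under hemin, which rest on 0 to 104 fragments per library.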
